A study of Mus musculus with 10 samples.

Results

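Mitochondrial ribosomal protein genes were followed through the embryonic mouse neocortex. They were chosen by name. Every gene of the deposited table was taken whose symbol begins with Mrpl (large subunit) or Mrps (small subunit) followed by a number. No measured value decided which genes fit this rule, but the rule was set with earlier results of these data known. The rule found 54 of the 6147 genes in the table, 33 with an Mrpl name and 21 with an Mrps name. In the GENCODE mouse annotation 78 gene names fit the rule, and those without a row in the table are not analysed here. By textbook knowledge of the ribosome, 20 of the 54 are large-subunit proteins with a bacterial counterpart, 14 are large-subunit proteins without one, 11 and 8 are the same kinds of small-subunit protein, and 1, Mrps28, was put in no class.

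Mitochondria keep their own ribosome, which translates the few mRNAs of the mitochondrial genome into core subunits of the respiratory chain and of ATP synthase. Its RNA comes from mitochondrial DNA, but its proteins are encoded in the nucleus, made in the cytosol and imported. Many descend from bacterial ribosomal proteins, and others were added during the evolution of mitochondria. Inherited defects in several of these genes cause disorders of oxidative phosphorylation that often affect the brain.

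The tissue was frozen neocortex of CD1 wild-type mice, an outbred strain, at embryonic days E12.5, E14, E15.5 and E17 and at birth (P0), when cortical progenitors divide, neurons are born and settle, and the first glia appear. Each stage had 2 libraries of polyadenylated RNA from a cleared detergent lysate, 10 in all. The submitters describe them as biological duplicates, but no animal, litter, sex or batch is given, so p-values measure only the spread between these samples. No treatment or mutation is named for any group.

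Values are TPM, in which reads are divided by gene length and scaled to a fixed total per library. Read numbers were not stated in the sources used here. The 6147 listed genes held between 68.9% and 71.7% of all TPM in each library. Of 9 neocortical markers 8 were in the table, and their summed level lay between 1032 and 1709 TPM in every library. Markers of other tissues were also present early. Ttr of the choroid plexus stood between 292.9 and 1491 TPM at E12.5 and E14 and at no more than 5.14 later, and 2 embryonic globins summed to between 1878 and 4490 TPM at E12.5 and E14 and to no more than 9.12 later. The 4 meningeal collagen and proteoglycan genes summed to between 78.95 and 125.3 TPM at E12.5 and E14 and to no more than 5.72 later. None of the 4 microglial markers was in the table. In bulk tissue, fewer cells of a type and less RNA per cell cannot be told apart.

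Messages of the mitochondrial ribosome were of moderate abundance. The median member stood at 60.1 and 59.7 TPM in the libraries of E12.5 and at 48.8 and 45.9 at P0, where the median of all listed genes was 44.6 and 45.7, then 37.3 and 38.6. Mrpl50 had the highest mean, 178.6 TPM over the 10 libraries, followed by Mrpl18 at 136.5 and Mrpl12 at 134.3. Mrps31 had the lowest mean among the genes tested, 15.9 TPM, followed by Mrpl1 at 18.8 and Mrps30 at 21.8. The ratio of the highest to the lowest member lay between 9.74 and 10.65 at E12.5 and E14 and was 13.29 and 13.48 at P0. The order of the members hardly moved: across 53 genes the Spearman correlation of mean TPM at E12.5 with that at P0 was 0.95, a description, since every point shares the same libraries.

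Mrpl53 was listed at 0 in all 10 libraries and was left out of every test. It lies on chromosome 6, 83109040 to 83109939 on the plus strand (GRCm38), and 88.0% of its exon bases are shared with the gene model Gm42688 on the same strand in GENCODE M21. Whether this overlap sets the value was not tested. Among the other members, the overlap with a gene on the same strand was 37.0% for Mrps34 (with Nme3), 23.2% for Mrps18c, 19.9% for Mrps6 and 15.4% for Mrps24, so part of their reads could be assigned elsewhere. Exons of 23 members overlap a gene on the opposite strand. The kit keeps the strand, but the strand setting of the counting was not stated in the sources used here.

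Between E12.5 and P0 most of these messages became less abundant as a share of the transcriptome. In a limma fit over all 10 libraries and 6048 genes, 37 of 53 members fell and 1 rose at a Benjamini-Hochberg adjusted p under 0.05, which is 69.8% and 1.9% of the members. Over all genes tested, 51% were called lower and 27.1% higher. The median change of the members was -0.38 on the log2(TPM + 1) scale and that of all genes -0.27. In the moderated F test over the 5 stages, 43 of 53 members were called, where 82.9% of all genes were.

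**Figure D1:**
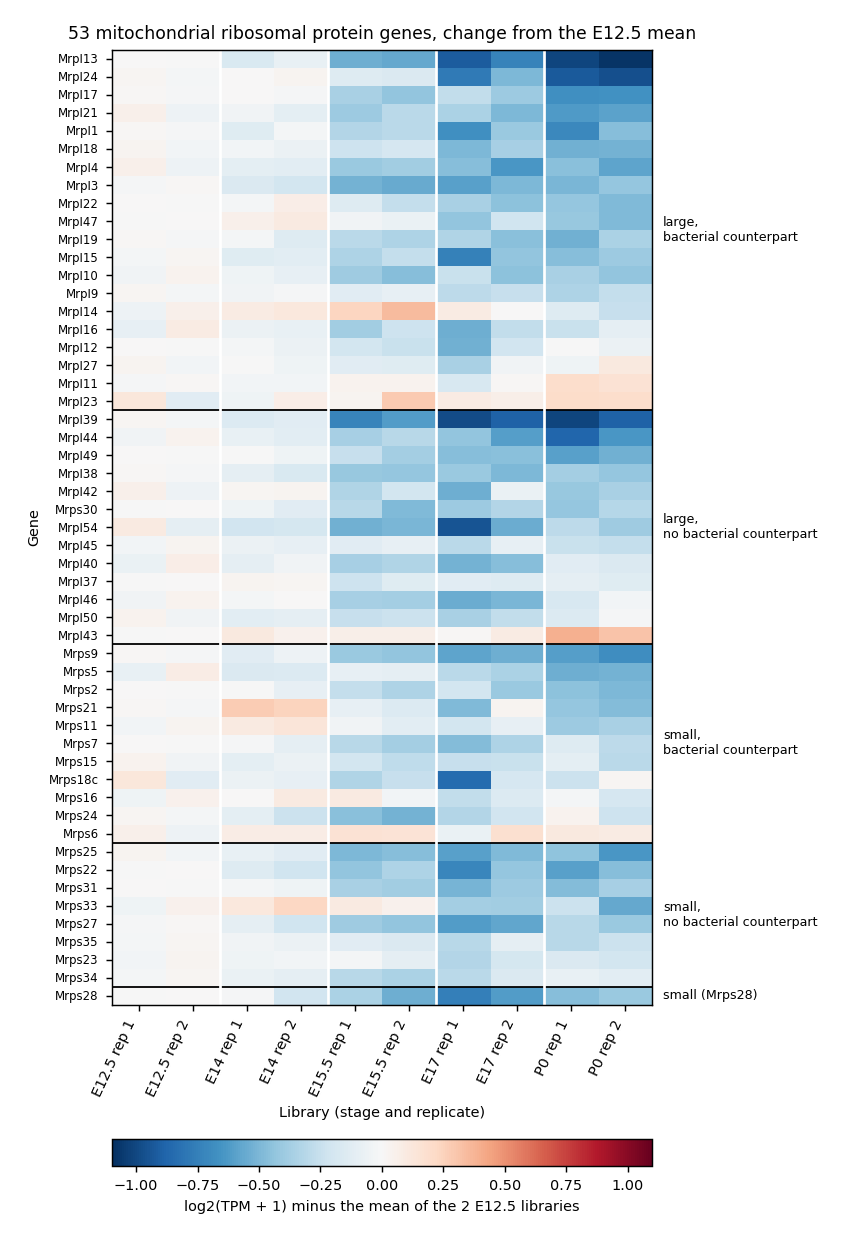
Change of the 53 tested genes (rows, grouped by class and sorted by the change at P0) in each library (columns), as log2(TPM + 1) minus the mean of the 2 E12.5 libraries, with blue for lower and red for higher. Most rows turn blue at E15.5 and stay so to P0, darkest for Mrpl13, Mrpl24 and Mrpl39, and Mrpl43 is red at P0.

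The fall was steepest for Mrpl13, a conserved protein of the large subunit. It stood at 141.9 and 141.6 TPM at E12.5, 126.1 and 134.2 at E14, 97.4 and 95.8 at E15.5, 74.5 and 84.5 at E17, and 69.8 and 66.4 at P0. No library of a later stage reached one of an earlier stage. Its change from E12.5 to P0 was -1.05 (SE 0.0805, adjusted p = 2.34e-07), a ratio of 0.48 in TPM.

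Mrpl39, which has no bacterial counterpart and sits near the exit of the peptide tunnel, was at 51.3 and 49.8 TPM at E12.5, 45.4 and 46.4 at E14, 30.2 and 32.8 at E15.5, 25.1 and 26.9 at E17, and 24.6 and 26.9 at P0. Its values fell early and then overlapped between E17 and P0. The change over the whole span was -0.95 (SE 0.0907, adjusted p = 1.59e-06). Mrpl24, the counterpart of a bacterial protein at the tunnel exit, had another time course. It was at 118.0 and 114.4 TPM at E12.5, 116.5 and 118.7 at E14, 105.4 and 103.8 at E15.5, 67.2 and 82.2 at E17, and 60.9 and 58.8 at P0. Its early libraries overlapped, and most of the fall came after E15.5, to a total of -0.95 (SE 0.0918, adjusted p = 1.8e-06).

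Mrpl44, a protein with a fold related to RNase III, went from 29.3 and 31.1 TPM at E12.5 to 16.0 and 19.1 at P0, a change of -0.75 (SE 0.108). Mrpl17 went from 92.1 and 90.7 to 57.0 and 57.1 TPM, a change of -0.67 (SE 0.0759). The small-subunit protein Mrps9, a conserved protein of the head, went from 40.4 and 39.8 to 26.1 and 24.5 TPM, a change of -0.65 (SE 0.0855). In each of these 3 genes no P0 library reached a library of E12.5. Mrpl21 changed by -0.61 and Mrpl1, of the mobile L1 stalk through which spent tRNAs leave, by -0.59, with adjusted p of 5.49e-05 and 0.000806. The call for Mrpl1 was lost under quantile normalization, at a change of -0.25 and an adjusted p of 0.122.

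Mrpl43, a large-subunit protein without a bacterial counterpart, was the only member called higher at P0 than at E12.5. It was at 97.5 and 98.0 TPM at E12.5, 105.7 and 101.0 at E14, 102.4 and 102.1 at E15.5, 98.8 and 103.9 at E17, and 128.4 and 121.6 at P0. The 8 embryonic libraries lay within a narrow band and both P0 libraries above it. The change was 0.35 (SE 0.0713, adjusted p = 0.000782), and it was called under each of the 21 alternatives tried. Mrpl43 lies on chromosome 19, 45004829 to 45006442 on the minus strand, and 33.4% of its exon bases overlap Twnk, the mitochondrial DNA helicase gene, on the opposite strand.

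Another 4 genes had a higher mean at P0 without passing the test: Mrpl23 at 0.20, Mrpl11 at 0.17, Mrps6 at 0.10 and Mrpl27 at 0.03. Mrpl12 and Mrpl50, among the most abundant members, had values of -0.04 and -0.08 that were not called. The sign for Mrpl12 was positive under quantile normalization, median-of-ratios scaling and removal of a curve on gene length, and that for Mrpl50 was positive under the latter pair.

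**Figure D2:**
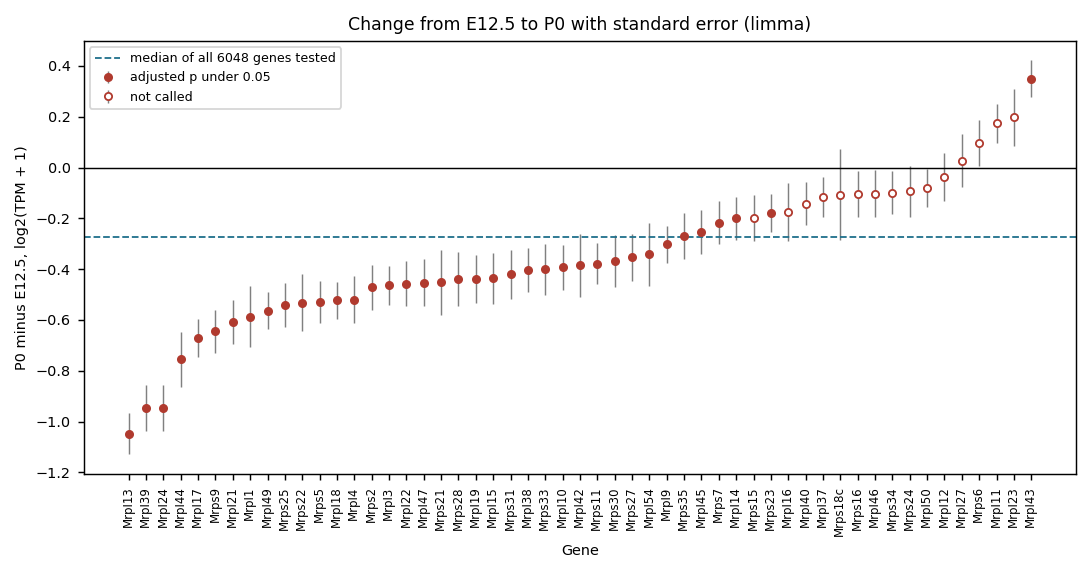
Change from E12.5 to P0 for each of the 53 tested genes in log2(TPM + 1), ordered by size, with bars of 1 standard error, filled points for an adjusted p under 0.05 and a dashed line at the median of all 6048 genes tested. The genes form a continuous series from Mrpl13 at -1.05 to Mrpl43 at 0.35, with 37 called lower and 1 called higher.

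How much of this fall is counted depended on the scale. TPM are shares of a total, and the median of all tested genes was itself -0.27 between E12.5 and P0. When libraries were rescaled by the median of gene ratios, the median of all genes was near 0 (-0.007) and that of the members was -0.11. On that scale 14 of 53 members were called lower and 5 higher, where 37.7% of all genes were called lower and 37.9% higher. The distance between the members' median and that of all genes was -0.11 on the TPM scale and -0.10 after rescaling. Mrpl13, Mrpl39, Mrpl24, Mrpl44, Mrpl17, Mrps9 and Mrpl21 were called lower, and Mrpl43 higher, on both scales. Mrpl45, called lower at -0.25 on the TPM scale, was at 0.02 and not called after rescaling.

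The members differ in where they sit in the ribosome. The stalk that recruits translation factors is built from Mrpl10, Mrpl11 and Mrpl12, with Mrpl53 beside its base in the mitochondrial particle. Mrpl12, the multicopy protein of the stalk, was at 146.8 and 146.7 TPM at E12.5, 144.3 and 140.2 at E14, 127.3 and 123.7 at E15.5, 101.6 and 126.4 at E17, and 146.1 and 140.3 at P0. It dipped in the middle of the series, and its P0 libraries came close to those of E12.5. Mrpl11 was at 126.9 and 129.8 TPM at E12.5 and at 146.9 and 143.0 at P0, with an adjusted p of 0.0577, and it was called higher under 7 of the 21 alternatives. Mrpl10, which anchors the stalk, was called lower, from 71.6 and 75.3 TPM to 57.3 and 54.2, a change of -0.39 (SE 0.0887, adjusted p = 0.00167). Removing the length curve ended that call, as did median-of-ratios scaling, with an adjusted p as high as 0.173.

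The rim of the tunnel through which new proteins leave, near the inner membrane, is lined by Mrpl17, Mrpl22, Mrpl23, Mrpl24, Mrpl39, Mrpl44, Mrpl45 and Mrpl47. Of these 8 genes 7 were called lower between E12.5 and P0, with a median change of -0.56, where 51% of all genes were called lower. Mrpl22 was at 37.5 and 37.4 TPM at E12.5 and at 27.6 and 26.5 at P0, and changed by -0.46. Mrpl47 changed by -0.45 and Mrpl45, which helps to hold the ribosome at the membrane, by -0.25. Mrpl23 stood apart from its neighbours, at 31.7 and 26.6 TPM at E12.5 and 33.4 and 33.4 at P0, with an adjusted p of 0.133, and was called higher under quantile normalization, median-of-ratios scaling and removal of the length curve. Quantile normalization and median-of-ratios scaling ended the calls for Mrpl22, Mrpl45 and Mrpl47. The call for Mrpl45 was also lost after removal of the length curve and without E12.5 replicate 1, E12.5 replicate 2 or P0 replicate 2.

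The 4 classes of subunit protein overlapped broadly between E12.5 and P0, where 51% of all genes were called lower. Among large-subunit proteins with a bacterial counterpart 15 of 20 were called lower (median -0.45), and among those without one 8 of 13 (median -0.34). The small subunit gave 6 of 11 (median -0.22) with a counterpart and 7 of 8 (median -0.38) without one. The shares of 6 of 11 and 8 of 13 lie near that of all genes. The largest falls were in large-subunit genes, and the lowest value among small-subunit genes was -0.65 for Mrps9. No test of a difference between classes was made. Mrps30, a large-subunit protein in spite of its name, changed by -0.37 (adjusted p = 0.00583), and Mrps28 by -0.44 (adjusted p = 0.00261). Both calls were lost under quantile normalization and median-of-ratios scaling, and that of Mrps30 also after removal of the length curve, with adjusted p of up to 0.592 for Mrps30 and 0.246 for Mrps28. Mrps18c, the 1 S18 paralog in the table out of 3, was at 39.37 and 33.00 TPM at E12.5 and 30.4 and 36.7 at P0, which overlap.

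Between E12.5 and E14 the members hardly moved. limma called 0 of 53 members, where 4.78% of all genes were called lower and 3.95% higher. The median change was -0.07 for the members and -0.06 for all genes. With array weights, or with only the libraries of the 2 stages in the fit, 6 members were called.

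On the TPM scale the fall from E14 to E15.5 was the widest of the 4 neighbouring steps. The distance of the members' median from that of all genes was -0.10 at this step and -0.13 from E15.5 to E17. The latter was -0.03 without E17 replicate 1. After median-of-ratios scaling the members' medians of these 2 steps were -0.11 and -0.13. limma called 24 of 53 members lower and 0 higher, or 45.3% lower, where 33.3% of all genes were called lower and 18.4% higher. The median was -0.23 for the members and -0.13 for all genes. Mrpl39 changed by -0.53 and Mrpl13 by -0.43, the largest falls of the step, and both calls held under all 21 alternatives. Mrpl43 was at 105.7 and 101.0 TPM before and 102.4 and 102.1 after, and Mrps6 at 79.8 and 79.9 before and 84.6 and 83.6 after.

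The count for this step rested on single libraries. Leaving out E14 replicate 1 gave 8 and E14 replicate 2 gave 10. Leaving out E15.5 replicate 1 gave 10 and E15.5 replicate 2 gave 5, and leaving out either E17 library gave 37, since all stages share the estimate of spread. After median-of-ratios scaling 6 members were called lower and 1 higher, where 25.7% of all genes were called lower and 26.1% higher. The markers of blood, choroid plexus and meninges dropped at the same step, from 1878 or more TPM to 9.12 or less for the globins. Their part in the members' fall was not tested.

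A comparison that leaves out the early libraries was added after the marker values were seen. From E15.5 to P0, 17 of 53 members were called lower and 4 higher, where 30.7% of all genes were called lower and 19.5% higher. The members' median was -0.12 and that of all genes -0.08. Mrpl24 changed by -0.80, Mrpl13 by -0.50 and Mrpl14, a conserved protein at the subunit interface, by -0.49, the largest falls. Mrpl14 was at 63.9 and 69.0 TPM at E15.5 and 48.8 and 45.1 at P0, but at 52.1 and 56.2 at E12.5, so that it peaked in the middle of the series. Mrps24 at 0.40, Mrpl43 at 0.29, Mrpl46 at 0.27 and Mrps34 at 0.23 were called higher. After median-of-ratios scaling 7 members were called lower and 6 higher, where 25.6% of all genes were called lower and 27.6% higher. The calls fell to 8 lower and 2 higher without E15.5 replicate 1, to 10 and 1 without E15.5 replicate 2, and to 10 and 3 without P0 replicate 1.

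Between E15.5 and E17, 5 of 53 members were called lower and 0 higher, where 10.6% of all genes were called lower and 14.4% higher. These were Mrpl24 at -0.49, Mrps33 at -0.45, Mrpl13 at -0.28, Mrpl47 at -0.27 and Mrpl18 at -0.22. Mrps33, a small protein of the small-subunit head without a bacterial counterpart, was at 97.3 and 103.6 TPM at E12.5, 109.1 and 118.1 at E14, 107.9 and 103.5 at E15.5, 77.2 and 76.7 at E17, and 84.9 and 67.8 at P0. It stayed near its early level through E15.5 and was lower in all 4 later libraries. Its call for this step (adjusted p = 0.00904) was lost without either E15.5 library and with only the libraries of the 2 stages in the fit.

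Between E17 and P0 the members moved both ways. limma called 7 of 53 higher and 5 lower, where 12.9% of all genes were called higher and 28.8% lower, and the median was 0.02 for the members and -0.10 for all genes. Mrpl46, Mrpl54, Mrpl40, Mrpl12, Mrpl43, Mrpl11 and Mrpl50 rose, and Mrpl17, Mrpl24, Mrpl14, Mrps11 and Mrpl13 fell. All that rose are of the large subunit, as are most members tested and all that fell except Mrps11. Positive changes, called or not, stood in 8 of 20 large-subunit genes with a bacterial counterpart and 7 of 13 without one. In the small subunit they stood in 6 of 11 and 6 of 8. The share of positive changes over all genes is not given here, so the classes cannot be read against it. Signs also moved with scale and library. The members' median was 0.125 after median-of-ratios scaling and -0.003 without E17 replicate 1. The call for Mrpl24 (-0.31, adjusted p = 0.0207) was lost under 7 of the 21 alternatives, among them quantile normalization, median-of-ratios scaling and leaving out E17 replicate 2, P0 replicate 1 or P0 replicate 2, with a change as small as -0.17. Mrpl46, a protein of the central protuberance, where the large subunit meets the small one, was at 30.0 and 31.8 TPM at E12.5, 30.4 and 31.0 at E14, 23.8 and 23.6 at E15.5, 20.8 and 21.5 at E17, and 27.2 and 30.3 at P0. Its dip at E15.5 and E17 did not overlap with the other stages, and its rise at birth was 0.42 (SE 0.0923, adjusted p = 0.00441).

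Mrpl54, which has no bacterial counterpart, was at 64.7 and 56.5 TPM at E12.5, 52.1 and 52.9 at E14, 41.5 and 42.3 at E15.5, 30.8 and 41.1 at E17, and 49.3 and 45.7 at P0. Its rise from E17 to P0 was 0.41 (SE 0.124, adjusted p = 0.0219), but without E17 replicate 1 it was 0.21 and not called, and the call was also lost without either P0 library. Mrpl17 fell by 0.34 at this step after a plateau of 71.0 and 67.4 TPM at E15.5 and 75.5 and 69.1 at E17. With array weights, or with only the libraries of the 2 stages, 0 members were called. After median-of-ratios scaling 12 members were called higher and 1 lower, where 21.4% of all genes were called higher and 22.6% lower.

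**Figure D3:**
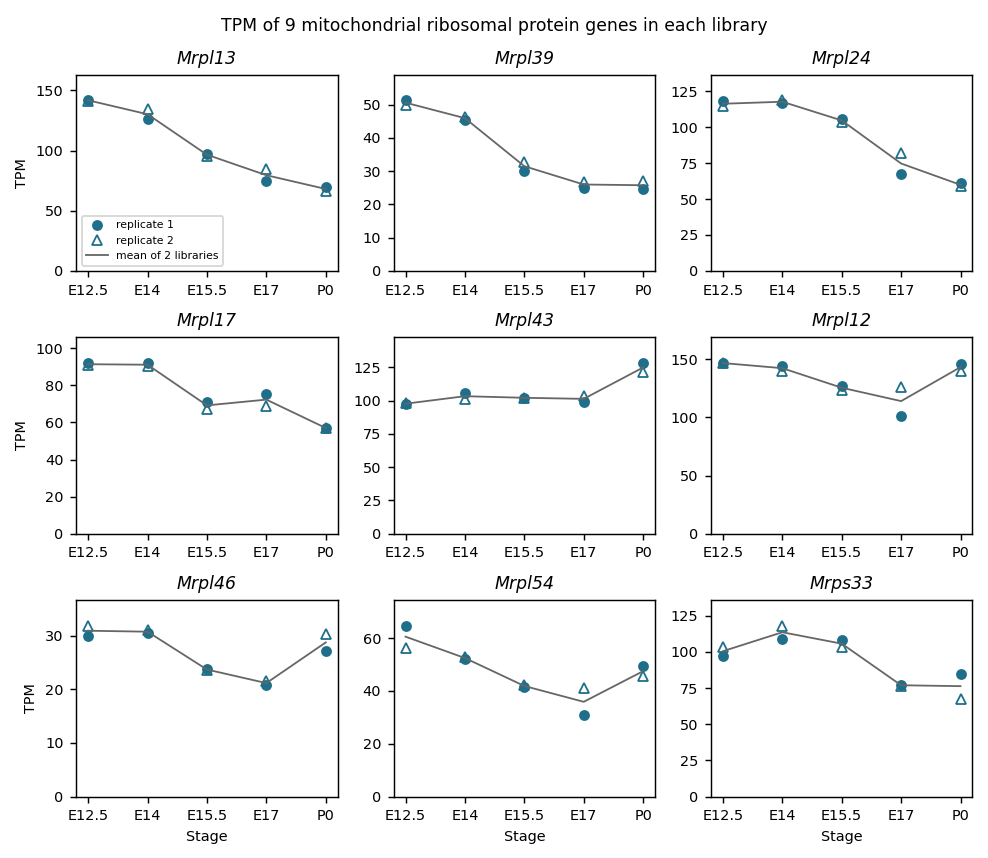
TPM of 9 genes in each library against stage, with circles for replicate 1, triangles for replicate 2 and a line through the means of 2 libraries. Mrpl13, Mrpl39, Mrpl24 and Mrpl17 end lowest at P0, Mrpl43 ends highest, Mrpl12, Mrpl46 and Mrpl54 dip at E17, and Mrps33 drops between E15.5 and E17.

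Both steps that touch E17 depended on which of its libraries was used. Members were higher in E17 replicate 2 than in replicate 1 in 39 of 53 cases, with a median difference of -0.11 (replicate 1 minus replicate 2), while the median over all genes was 0.16. Over the members, that difference had an SD of 0.184, where the other stages ranged from 0.065 to 0.123. Over all genes the SD was 0.285 at E17 and ranged from 0.088 to 0.176 at the other stages. Without E17 replicate 2 the members' median was -0.18 from E15.5 to E17, where that of all genes was 0.09. From E17 to P0 it was 0.06, against -0.18 for all genes. Without E17 replicate 1 the members' medians of these steps were -0.08 and -0.003, and those of all genes -0.05 and -0.04. The distance of the members' median from that of all genes from E15.5 to E17 was -0.13 with both libraries, -0.03 without replicate 1 and -0.27 without replicate 2. The number of members called at both steps also changed when single libraries of other stages were left out.

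**Figure D4:**
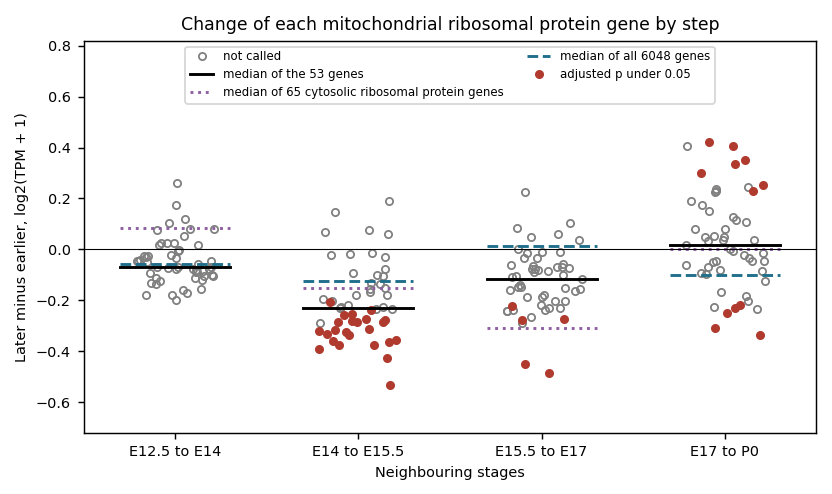
Change of each of the 53 genes (points) at the 4 neighbouring steps in log2(TPM + 1), filled where the adjusted p is under 0.05, with lines at the medians of these genes, of 65 cytosolic ribosomal protein genes and of all 6048 genes. The members lie lowest at E14 to E15.5 (median -0.23) and spread to both sides of 0 at E17 to P0.

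E12.5 held the highest of the 5 stage means for 38 of 53 members, E14 for 9, E15.5 for 2, E17 for 0 and P0 for 4. P0 held the lowest for 23, E17 for 22, E15.5 for 5 and E12.5 for 3. Highest and lowest stages were not counted over all genes. On this scale 51% of all genes were called lower from E12.5 to P0, so these counts do not set the members apart. Mrpl43 had its lowest mean at E12.5 and its highest at P0, the reverse of Mrpl13. The means of Mrpl23 had the same extremes, 29.1 TPM at E12.5 and 33.4 at P0. However, Mrpl23 was not called in the moderated F test over the 5 stages (adjusted p = 0.389). Summed over the genes, the members held 0.381% and 0.378% of all TPM at E12.5, 0.372% and 0.37% at E14, 0.326% and 0.323% at E15.5, 0.283% and 0.31% at E17, and 0.306% and 0.303% at P0. All 4 libraries of E12.5 and E14 lay above all 6 later ones. The P0 mean minus the E12.5 mean was -0.075 percentage points, and -0.0095 after median-of-ratios scaling.

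Cytosolic ribosomal protein genes give a context for these values. The table held 66 cytosolic ribosomal protein genes, of which 65 were tested. At the 4 neighbouring steps, in order, their median was 0.084, -0.15, -0.31 and 0.003, and that of the mitochondrial genes -0.07, -0.23, -0.12 and 0.02. From E12.5 to P0 the medians were -0.35 for the cytosolic and -0.38 for the mitochondrial genes on the TPM scale. In the same order they were -0.36 and -0.16 under quantile normalization and -0.07 and -0.11 after median-of-ratios scaling. With the length curve removed they were -0.25 and -0.20, so which set fell more depended on the scale. The summed TPM of the cytosolic genes was between 20.6 and 26.4 times that of the mitochondrial genes, and the lowest ratio was in E17 replicate 1. The cytosolic medians of the steps into and out of E17 rested on single libraries. They were -0.09 and -0.21 without E17 replicate 1, and -0.50 and 0.20 without E17 replicate 2, so the order of the steps changed with the library. These comparisons share libraries, and no test of a difference between the gene sets was made.

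**Figure D5:**
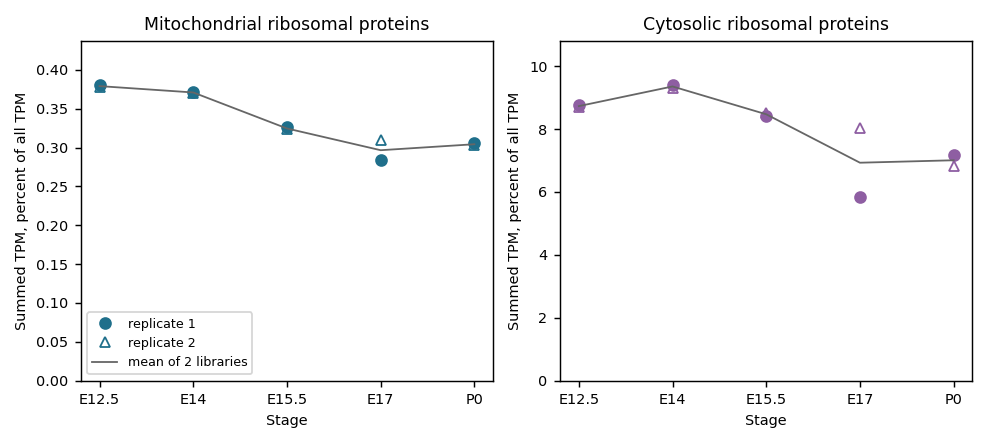
Summed TPM of the 54 mitochondrial (left) and 66 cytosolic (right) ribosomal protein genes as a percent of all TPM in each library, with circles for replicate 1, triangles for replicate 2 and lines through stage means; both axes start at 0 and differ in range. The mitochondrial sum lies between 0.37% and 0.381% at E12.5 and E14 and between 0.283% and 0.326% later, and E17 replicate 1 is lowest in both panels.

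Genes for these proteins are scattered. The 54 lie on 17 chromosomes, with 9 on chromosome 11, and their median coding length is 648 bases against 1509 for all listed genes. Change from E12.5 to P0 had a Spearman correlation of -0.34 with coding length across the 53 genes, a description, since the points share libraries. One pair is arranged head to head: Mrpl46 (chromosome 7, 78775236 to 78783531, minus strand) and Mrps11 (chromosome 7, 78783119 to 78792989, plus strand), whose exons overlap over 12.2% of Mrpl46 and 8% of Mrps11. On the TPM scale they went opposite ways at birth, where the median of all genes was -0.10. From E17 to P0 Mrpl46 rose by 0.42. Mrps11, a conserved protein of the small-subunit platform, fell by 0.23 (adjusted p = 0.0365). It went from 56.7 and 61.6 TPM to 49.3 and 51.1. The call for Mrps11 was lost under quantile normalization and after median-of-ratios scaling.

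Promoters of these genes were searched for short motifs known from housekeeping and mitochondrial genes. RefSeq windows (GRCm38.p6), from 250 bases before to 50 after the start, matched 45 of the 54 members by symbol, and both strands were read. The ETS core CCGGAAG, the core of sites bound by factors such as GABPA, stood in 15 of 45 windows (33.3%), in 20.5% of the windows of all listed genes and in 9.12% of all windows. The NRF1 core GCATGCGC stood in 5 (11.1%, against 6.69% and 2.8%) and the YY1 core AAGATGGC in 7 (15.6%, against 5.85% and 2.88%). The E-box CACGTG stood in 2 (4.44%, against 10.8% and 7.24%), CCAAT in 14 (31.1%, against 38.3% and 37.9%) and the palindrome TCTCGCGA in 0 of 45 (against 2.95% and 1.08%). None of these motifs contains another. From E12.5 to P0, 10 of 14 tested members with an ETS core were called lower and 1 higher, and 19 of 30 without one were called lower and 0 higher, where 51% of all genes were called lower and 27.1% higher.

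Stretches of up to 120 bases that end at the start of the GENCODE gene model are shown, for the only member that rose over the whole span (Mrpl43), for a member that fell and holds both an ETS and an NRF1 core (Mrpl22), and for one of the steepest falls (Mrpl24). They run 5′ to 3′ on the strand of the gene, and capitals mark matches to the ETS core or, in Mrpl22, also to the NRF1 core read on the other strand. Mrpl43 lies at chr19:45006443-45006557 (minus), Mrpl22 at chr11:58171541-58171660 (plus) and Mrpl24 at chr3:87919386-87919505 (plus).
Mrpl43: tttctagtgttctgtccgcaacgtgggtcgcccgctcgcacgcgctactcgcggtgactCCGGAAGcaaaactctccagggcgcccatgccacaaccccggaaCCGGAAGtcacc
Mrpl22: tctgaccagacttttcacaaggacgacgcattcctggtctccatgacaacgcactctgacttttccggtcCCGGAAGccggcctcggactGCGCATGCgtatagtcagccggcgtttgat
Mrpl24: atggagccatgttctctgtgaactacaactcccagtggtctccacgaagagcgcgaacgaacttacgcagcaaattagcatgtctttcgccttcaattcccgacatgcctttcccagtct
Mrpl43 carries the ETS core at 2 places and rose by 0.35, Mrpl22 carries it at 1 place and fell by 0.46, and the stretch of Mrpl24, which fell by 0.95, holds none of the 6 motifs. A match describes letters in a window and is not evidence of binding.

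Other parts of the mitochondrial translation system were read from lists, between E12.5 and P0. Of 4 mitoribosomal proteins with other names, Gadd45gip1 (a large-subunit protein) changed by -0.73 and Ptcd3 (at the mRNA entry) by -0.62, while Dap3, a GTP-binding protein of the small-subunit head, rose by 0.25 (adjusted p = 0.00928). Dap3 was at 59.96 and 62.35 TPM at E12.5, between 57.8 and 62.8 in all libraries of E14, E15.5 and E17, and at 71.8 and 73.5 at P0, so that it rose at birth as Mrpl43 did. Chchd1 was at 186.1 TPM on average at E12.5 and 185.8 at P0.

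Over all genes tested, 51% were called lower and 27.1% higher in this comparison. Of 10 translation factors and helpers 7 were called lower and 0 higher. Values ran from -0.93 for Taco1, an activator of the synthesis of a cytochrome oxidase subunit, to 0.01 for Guf1, which was not called. The elongation factors Tsfm and Gfm1 changed by -0.58 and -0.59. Of 14 mitochondrial aminoacyl-tRNA synthetases 9 were called lower and 2 higher, from -1.09 for Sars2 to 0.39 for Mars2, with Gars and Kars also serving the cytosol. Of 6 assembly and rRNA modification genes 3 were called lower and 1 higher, a share near that of all genes, with Fastkd2 at -0.84 and the rRNA methyltransferase Mrm1 at 0.57. Tfam, which packages and transcribes mitochondrial DNA, was at 135.7 and 133.6 TPM at E12.5 and 83.8 and 89.7 at P0, a change of -0.63. No mRNA of the mitochondrial genome had a row in the table (0 rows).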

How the data were processed

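RNA of 10 neocortex libraries was analysed from the table the authors deposited. Per the file headers its values are TPM, 1 column per library, and 0 value columns were left without a sample. The submitters' processing notes name STAR, Subread and the build GRCm38.p5; lengths, annotation, strand setting and the rule that chose the 6147 genes were not stated in the sources used here. Genes whose mean reached 1 TPM were kept (6048), 1 TPM was added, and log2 values were fitted with limma 3.58.1 (R 4.3.3), with a mean for each stage, 5 residual degrees of freedom, a variance trend and Benjamini-Hochberg adjustment over all genes (calls under 0.05). TPM are not counts, so depth is unknown, and the log2 scale understates changes of low genes. The median SE was 0.09 for members and 0.107 for all genes.

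The members and lists were chosen with earlier results of these data known. Named were members with the 8 largest called rises and falls over the whole span, the 2 largest of each step, the 3 highest and 3 lowest means, all stalk, tunnel-exit and S18 members, Mrps30 and Mrps28, the extremes of each other list and mitoribosomal proteins with other names; a few others were chosen after their values were seen (Mrpl14, Mrpl18, Mrpl40, Mrpl47, Mrps6, Mrps11, Mrps24, Mrps34, Tsfm and Gfm1 among them). Positions came from GENCODE M21 (GRCm38) by gene identifier for 6146 of 6147 genes, and promoters from RefSeq. Scripts were tested on simulated data; tables and figures used pandas 2.3.3, numpy 2.4.6, Python 3.11.15 and matplotlib 3.10.9. The 21 alternatives covered pseudocount, filter, scaling, variance model, libraries fitted, replicate block, gene length and each library left out.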

Additional observations from a re-analysis of the deposited data

How the results depend on the processing

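With 2 libraries per stage the counts rest on the shared spread, and TPM without read depth give no counting error. Members called were 43 over the 5 stages (39 to 51 leaving out each library). From E12.5 to E14 the count was 0, with 6 under array weights, 6 with only the libraries of the 2 stages and 0 to 1 leaving out each library. From E14 to E15.5 it was 24, with 10 under quantile normalization, 7 under median-of-ratios scaling, 41 under array weights, 41 with only the 2 stages and 5 to 37 leaving out each library. From E15.5 to E17 it was 5, with 10 under quantile normalization, 2 under array weights, 0 with only the 2 stages and 1 to 20 leaving out each library. From E17 to P0 it was 12, with 0 under array weights, 0 with only the 2 stages and 6 to 20 leaving out each library. From E12.5 to P0 it was 38, with 21 under quantile normalization, 19 under median-of-ratios scaling and 31 to 40 leaving out each library, and it was 21 with E15.5 in place of E12.5, an alternative chosen after seeing the data. Same-numbered replicates did not deviate together (correlations of -0.375 to 0.107 over 10 pairs of stages, 1 of them over 0.1); with the replicate block the counts were 42 over the 5 stages, then 0, 20, 3, 9 and 36. The summed share of the members differed by -0.0749 percentage points between E12.5 and P0, by -0.0944 as a share of the listed genes, by -0.0095 after median-of-ratios scaling and by -0.0763 to -0.0734 leaving out each library. Mrpl45 was reversed from E12.5 to P0, to 0.017 (adjusted p = 0.885) under median-of-ratios scaling, which shifts all genes. For the other differences the cause was not tested.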

Other observations

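Lars2, the mitochondrial leucyl-tRNA synthetase, stood apart within the mitochondrial translation genes. It was at 59.9 and 43.5 TPM at E12.5, 44.5 and 44.7 at E14, 33.2 and 165.6 at E15.5, 797.7 and 44.8 at E17, and 56.9 and 49.8 at P0. A single library, E17 replicate 1, held the highest value, and E15.5 replicate 2 the next. The standard error of its stage differences was 1.005 (log2), against a median of 0.107 over all genes.

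Mrm1, which methylates the mitochondrial ribosomal RNA of the large subunit, moved against most of its assembly list. It was at 11.52 and 12.52 TPM at E12.5, 9.78 and 9.61 at E14, 11.3 and 12.9 at E15.5, 14.8 and 15.8 at E17, and 18.7 and 17.9 at P0. Malsu1, an assembly factor of the same subunit, was at 25.50 and 24.55 TPM at E12.5, 22.50 and 22.54 at E14, 19.69 and 19.29 at E15.5, 20.08 and 22.92 at E17, and 26.51 and 25.09 at P0. Its lowest libraries were those of E15.5, and those of E17 overlapped with those of E14.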
